A study of Homo sapiens with 96 samples.

Results

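The effect of adding GSK591 to MS023 for 2 days was measured on poly(A) RNA splicing in A549 cells, by setting 3 libraries from cells given both compounds against 3 libraries from cells given MS023 alone. These are 6 of the 96 samples of the series. Every alternative splicing event that both deposited tables list with the same type, chromosome, strand and coordinates was taken, which gave 109514 events, of which 94058 had at least 10 reads in each of the 6 libraries and were tested; 2712 of these (2.88%) differed between the groups. The listed events were 4329 retained introns (RI), 77150 cassette exons (SE), 6932 alternative 3′ splice sites (A3SS), 4589 alternative 5′ splice sites (A5SS) and 16514 pairs of mutually exclusive exons (MXE).

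A549 is an established human lung adenocarcinoma line, so each group is a treatment of 1 cell line. Co-treated cells received 1 µM GSK591 and 1 µM MS023 together, and MS023 cells received 1 µM MS023, both for 2 days; all 6 libraries therefore carry MS023, and only the 3 co-treated libraries carry GSK591. Used beside them were 3 libraries of GSK591 alone at 1 µM for 2 days, 3 libraries of 0.01% DMSO at 4 days, and 3 libraries each of co-treated and MS023 cells at 4 days. The DMSO libraries were of 4 days, so for them day and treatment cannot be told apart. The labels do not say whether replicates came from separate cultures, so the p-values measure the spread between these libraries, which may be technical.

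Protein arginine methyltransferases (PRMTs) add methyl groups to arginines of RNA-binding and splicing proteins. GSK591 inhibits PRMT5, the main Type II enzyme, which makes symmetric dimethylarginine and modifies the Sm proteins that form the core of the spliceosomal snRNPs. MS023 inhibits the Type I enzymes, among them PRMT1 and CARM1, which make asymmetric dimethylarginine. Transcripts that keep an intron are often held in the nucleus or degraded, so the share of an intron left in poly(A) RNA reflects splicing and the fate of the unspliced RNA together. The measure throughout was Ψ, the share of an event's reads, per effective length, that belong to the form that includes the intron, exon or longer exon end; for MXE it is the share of the exon nearer the 5′ end. ΔΨ is Ψ of the co-treated libraries minus Ψ of the MS023 libraries, given with its standard error from the 3 libraries of each group.

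Reads counted over the listed events ranged from 63258411 to 69563592 in the co-treated libraries and from 72976781 to 84114017 in the MS023 libraries, with a read counted again in each overlapping event. Depth thus moved with the groups, and its part in the results was not tested. Among 11 markers of the line, ALDH1A1, TXNRD1, AKR1B10 and KRT8 carried at least 380686 reads in each library, whereas EPCAM carried 25 to 39 and KRT19 had no listed event. Of 10 markers of blood, fibroblast and endothelial cells, 8 had no listed event, COL1A1 carried 17 to 70 reads and COL3A1 1 to 14.

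The introns and exons shown here are a selection of those described below, and some that are not shown changed more. The letters are hg19 reference sequence, read 5′ to 3′ on the strand of the gene. In the introns, capitals mark the first 6 and the last 3 bases, which form the ends of the 5′ and 3′ splice sites.
SGSM3 intron 12, chr22:40803333-40803416, plus strand: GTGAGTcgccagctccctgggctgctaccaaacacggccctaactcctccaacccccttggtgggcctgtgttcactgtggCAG
NOP2 intron 14, chr12:6669493-6669612, minus strand: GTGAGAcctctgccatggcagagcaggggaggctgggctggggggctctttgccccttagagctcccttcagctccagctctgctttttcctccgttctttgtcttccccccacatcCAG
HNRNPH1 intron 13, chr5:179043960-179044051, minus strand: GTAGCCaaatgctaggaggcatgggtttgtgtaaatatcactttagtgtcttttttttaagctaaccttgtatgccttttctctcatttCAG
THOC6 intron 2, chr16:3075825-3075924, plus strand: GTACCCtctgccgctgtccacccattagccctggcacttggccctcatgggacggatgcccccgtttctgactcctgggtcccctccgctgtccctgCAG

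In the cassette exons, capitals mark the exon and lower case the 20 intron bases on each side.
SNHG1 exon 4, chr11:62622340-62622430, minus strand: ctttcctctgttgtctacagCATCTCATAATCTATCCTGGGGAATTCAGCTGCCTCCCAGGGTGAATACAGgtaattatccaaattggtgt
PCBP2 exon 12, chr12:53861569-53861647, plus strand: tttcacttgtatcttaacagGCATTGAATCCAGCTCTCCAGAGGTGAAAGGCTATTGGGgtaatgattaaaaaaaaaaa
MSI2 exon 13, chr17:55754328-55754440, plus strand: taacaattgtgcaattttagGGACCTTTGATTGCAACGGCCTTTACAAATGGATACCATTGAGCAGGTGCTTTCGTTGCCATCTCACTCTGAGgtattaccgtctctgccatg
U2AF1 exon 3, chr21:44520543-44520649, minus strand: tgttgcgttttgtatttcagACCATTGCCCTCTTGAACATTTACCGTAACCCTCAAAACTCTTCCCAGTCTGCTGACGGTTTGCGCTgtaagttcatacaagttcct

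Adding GSK591 to MS023 raised the retention of 1097 introns and lowered that of 111, among 3832 tested. The share called was 28.6% higher and 2.9% lower, 31.5% in all (quasi-binomial test with limma-moderated dispersion, Benjamini-Hochberg adjusted p under 0.05 within event type). Adjustment over all 5 event types together left 577 calls, 545 of them higher. The median tested intron had a Ψ of 0.260, 0.256 and 0.250 in the 3 co-treated libraries and of 0.153, 0.153 and 0.152 in the 3 MS023 libraries. All 3 co-treated medians lay above all 3 MS023 medians, with a difference of 0.103 (two-sided exact permutation p = 0.1, the smallest that 3 against 3 libraries allow, and 0.25 adjusted over the 5 event types). Ψ was higher on average in the co-treated libraries for 2787 of the 3832 introns (72.7%). The ΔΨ of introns called higher ran from 0.000609 to 0.610, with a median of 0.107, and 577 of them exceeded 0.1. Among introns called lower the median ΔΨ was −0.0870 and 52 exceeded 0.1 in size. Over all tested introns the median ΔΨ was 0.0205. In bulk RNA, a change in many cells and a larger change in few cells cannot be told apart.

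**Figure D1:**
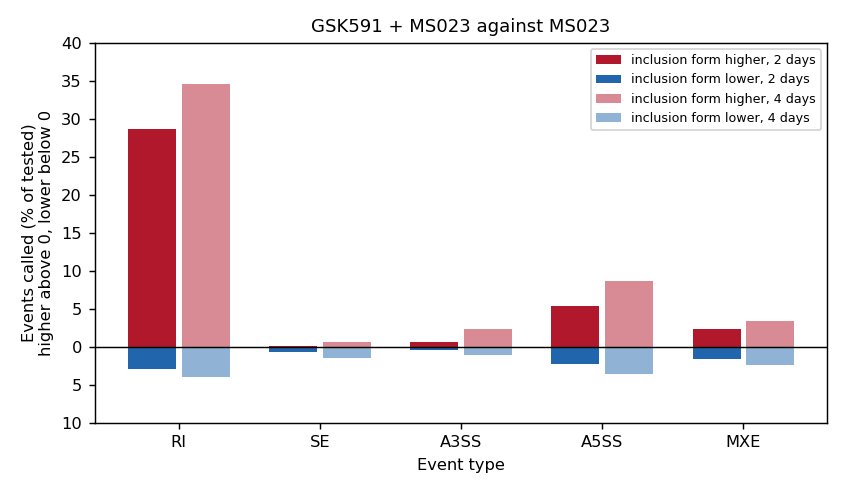
Events called higher (bars above 0) and lower (bars below 0) in co-treated than in MS023 libraries, as a percentage of the events tested, for each of the 5 event types at 2 days (dark bars) and 4 days (pale bars). The share called is largest for retained introns, with 28.6% higher and 2.9% lower at 2 days. Cassette exons were called lower more often (0.698%) than higher (0.145%).

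Several introns passed from mostly spliced in MS023 cells to mostly retained in co-treated cells. In SGSM3, which encodes a modulator of small GTPases, intron 12 had Ψ of 0.710, 0.768 and 0.793 against 0.199, 0.208 and 0.173 (ΔΨ 0.564 ± 0.0268, SE, n = 3 per group, limma-moderated adjusted p = 0.000266). This 84-bp intron, shown above, had Ψ under 0.5 in each MS023 library and over 0.5 in each co-treated library. Intron 22 of POLD1, the catalytic subunit of DNA polymerase delta, gave 0.726, 0.612 and 0.661 against 0.143, 0.171 and 0.153, with at least 874 reads in each library (ΔΨ 0.511 ± 0.0338, limma-moderated adjusted p = 0.000266). Both introns were chosen for no overlap between the groups, which 1743 of the 3832 tested introns (45.5%) showed.

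Other introns with large rises were in KIAA0195, FUK, CCDC78, DGKA and STK19. Intron 16 of KIAA0195 had Ψ of 0.852, 0.839 and 0.797 in co-treated cells and 0.330, 0.232 and 0.242 in MS023 cells. Intron 10 of DGKA, a diacylglycerol kinase, gave 0.784, 0.637 and 0.691 against 0.218, 0.168 and 0.126, on as few as 50 reads. Intron 4 of STK19 had 0.709, 0.661 and 0.824 against 0.179, 0.177 and 0.319. In the remaining pair the MS023 libraries spread more widely. Intron 7 of FUK, the fucose kinase, had Ψ of 0.796, 0.839 and 0.801 against 0.102, 0.351 and 0.271, on as few as 60 reads. Intron 11 of CCDC78 had no spliced read in the co-treated libraries, so that Ψ was 1 in all 3, against 0.477, 0.286 and 0.619 with MS023. All 7 introns lay in coding regions, and each was called under all 13 alternative settings tried, leaving out any 1 library included. Of these settings, the lack of length correction alters Ψ only, so it could not change a call.

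**Figure D2:**
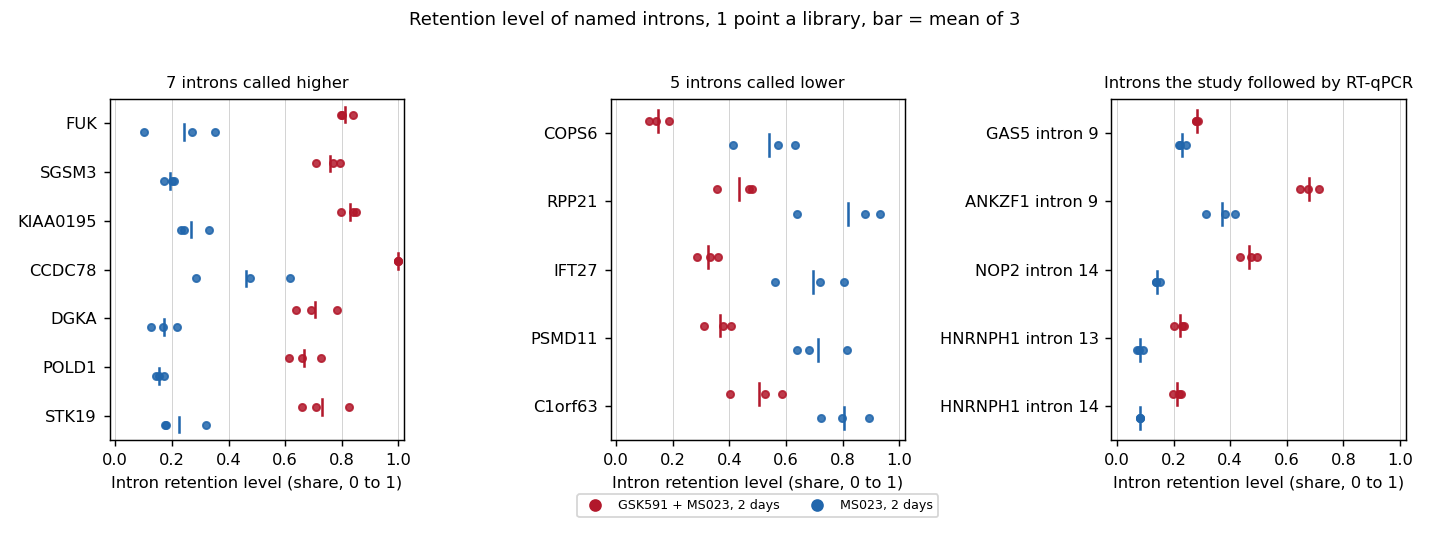
Ψ (share, 0 to 1) of named introns with large rises and falls and of the introns the study followed by RT-qPCR, with 1 point per library for co-treated and MS023 cells at 2 days and a bar at each mean of 3. In each of the 7 introns called higher on the left, chosen for no overlap, all 3 co-treated points lie above all 3 MS023 points. SGSM3 goes from 0.194 to 0.757 on average.

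Introns whose retention fell were less regular. In COPS6, a subunit of the COP9 signalosome, a 383-bp segment had Ψ of 0.186, 0.117 and 0.139 in co-treated cells and 0.412, 0.573 and 0.631 in MS023 cells (ΔΨ −0.391 ± 0.0687, limma-moderated adjusted p = 0.00472). In PSMD11, a proteasome subunit, Ψ was 0.405, 0.379 and 0.312 against 0.814, 0.638 and 0.682. The groups stood apart in both, as their choice required, although the MS023 libraries spread widely. The 3 others were IFT27, an intraflagellar transport protein (0.285, 0.332 and 0.359 against 0.561, 0.803 and 0.721), RPP21, a subunit of RNase P (0.354, 0.469 and 0.480 against 0.932, 0.640 and 0.881), and C1orf63 (0.525, 0.588 and 0.403 against 0.893, 0.725 and 0.799). Of the 5 segments, 3 match no annotated intron exactly, namely those of COPS6, IFT27 and PSMD11. Without 1 library, the RPP21 call was kept in 1 of 6 fits, the C1orf63 call in 3 and the other 3 in all 6.

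The introns followed by RT-qPCR in the study were located from its primers, and all were called higher. NOP2, a nucleolar RNA methyltransferase, had Ψ of 0.434, 0.475 and 0.494 in intron 14 of co-treated cells against 0.150, 0.138 and 0.139 (ΔΨ 0.325 ± 0.0183, limma-moderated adjusted p = 0.000266). In ANKZF1, a ribosome quality control factor, intron 9 had 0.675, 0.647 and 0.713 against 0.313, 0.416 and 0.381 (ΔΨ 0.309 ± 0.0358, limma-moderated adjusted p = 0.00253). Both stood well clear of the MS023 libraries. In GAS5, a non-coding snoRNA host, intron 9 moved little, from 0.244, 0.219 and 0.222 to 0.287, 0.281 and 0.278 (ΔΨ 0.0536 ± 0.00833, limma-moderated adjusted p = 0.00791), and by limma on log2 odds it was not called (adjusted p = 0.161). The 4-day libraries gave GAS5 intron 9 a ΔΨ of −0.0342 (limma-moderated adjusted p = 0.107). A longer GAS5 event of 370 bp that spans intron 9 was called lower at 2 days. Its mean Ψ went from 0.8545 to 0.7731 (limma-moderated adjusted p = 0.017). HNRNPH1 encodes a splicing regulator that binds G-rich RNA, and its 92-bp intron 13 by the study's numbering, intron 10 of 13 in the canonical transcript, had Ψ of 0.231, 0.238 and 0.200 against 0.0774, 0.0912 and 0.0713. Its intron 14 had 0.225, 0.217 and 0.197 against 0.0809, 0.0802 and 0.0822. A form of intron 13 starting at a 5′ splice site that leaves 101 bp was almost fully retained in both groups, at 0.983 ± 0.00832 and 0.937 ± 0.0206 (SD, n = 3 each), and kept its call in 2 of 6 fits without 1 library.

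Introns called higher were shorter and richer in G and C than those tested. The median length was 224 bp in introns called higher, 550 bp in those called lower and 256 bp over all tested, and the median GC content was 59.2%, 50.1% and 57.0%. The share called higher went from 32.6% of 760 introns of at most 100 bp to 20.5% of 516 introns over 1000 bp. Over the same classes the share called lower went from 1.05% to 7.56%, and the median ΔΨ from 0.0301 to 0.00717. Across GC classes the share called higher was 19.9% at or below 40% GC and 33.7% above 60% GC. The median of the fewest reads per intron lay between 148 and 245 across the length and GC classes, and its part in these shares was not tested.

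The bases at the splice sites differed between the sets. The exon ended in G before 71.6% of introns called higher, 79.3% of those called lower and 79.5% of those tested. The third intron base was G in 52.7%, 40.5% and 47.1%, and the strong 5′ splice site GTAAGT opened 4.38%, 13.5% and 6.73%. Of the introns printed above, those of SGSM3 and NOP2 carry G at the third base. Introns of the minor type, sought as ATATCCTT or GTATCCTT at the 5′ end on the strand of the gene alone, numbered 15 of the 3832 tested (0.391%), of which 3 were called higher and 0 lower. The last intron of the canonical transcript was called higher less often, in 46 of 204 (22.6%), than other introns of these transcripts, in 919 of 2318 (39.6%). These are descriptions, with no test of the difference.

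Introns called higher and introns called lower also differed in what they were. Of the introns called higher, 99.5% matched an annotated intron and 93.7% lay in coding regions, against 84.7% and 67.0% of those called lower. A tested cassette exon lay inside 36.9% of the introns called lower (41 of 111), 3.56% of those called higher (39 of 1097) and 9.71% of those tested. The median Ψ in the MS023 libraries was 0.0874 for introns called higher and 0.397 for introns called lower, and it exceeded 0.5 in 122 of the 1097 called higher and in 50 of the 111 called lower. Reads of a contained exon count as retention reads in such events, and their part in the lower calls was not tested.

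Some genes had several introns called higher. The 1097 introns, 28.6% of those tested, belonged to 797 of the 2177 genes with a tested intron. Of these genes 198 had at least 2 such introns and 63 at least 3, and 28 genes had introns called in both directions. At least 3 introns were tested in 388 genes, of which 13 had all of them called higher. AP1G2, an adaptor subunit of clathrin coats, had 7 of 11 tested introns called higher and 1 lower. VPS28, a subunit of the endosomal ESCRT-I complex, had 7 of 9, with ΔΨ from −0.164 to 0.205 over all 9. ACADVL, which oxidises very long chain fatty acids, had 6 of 9 called higher, with ΔΨ between −0.00482 and 0.259 over all 9. NPRL2, part of a complex that restrains mTORC1, had 5 of 7, and all 7 had a ΔΨ of at least 0.0604. CPSF3L had 6 of 9, with ΔΨ from 0 to 0.257, and in RHOT2, a mitochondrial GTPase, 6 of 14 were called higher. FASTK, HNRNPH1 and TTC31 also had 5 called higher, HNRNPH1 with both forms of its intron 13 counted. These 9 genes were picked for their counts after the values were seen.

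Cassette exons moved mostly towards skipping. Of 65343 tested, 456 were called lower (0.698%) and 95 higher (0.145%), 0.843% in all, and 349 of the former and 67 of the latter changed by more than 0.1. The median library Ψ was 0.986 in co-treated and 0.990 in MS023 cells, a difference of −0.00421 (two-sided exact permutation p = 0.1, adjusted 0.25). The count of calls depended on the fit. When events needed at least 6 reads of the rarer form, a setting chosen after seeing the data, 41413 were tested and 7260 called, all 551 included. The same rule called 1493 of 3566 tested introns. By limma on log2 odds 1132 cassette exons were called, 321 of the 551 included, and without any 1 library 0 to 2. The share of calls that were higher stayed between 16.1% and 24.5% over the settings that keep all libraries. The named cassette exons below lost their calls in each fit without 1 library, except PCBP2, which kept it in 1 of 6.

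Of called exons with at least 50 reads in each library and no overlap between groups, 1 per gene, the largest loss was in SNHG1, a non-coding RNA whose introns encode snoRNAs. Its 51-bp exon 4 had Ψ of 0.788, 0.793 and 0.794 in MS023 libraries and 0.104, 0.127 and 0.118 in co-treated libraries (ΔΨ −0.675 ± 0.00711, limma-moderated adjusted p = 0.00559). The exon went from mostly included to mostly skipped, with a spread of 0.0118 or less (SD, n = 3) within either group. SDR39U1 exon 2 fell from 0.778, 0.780 and 0.841 to 0.211, 0.161 and 0.170. NAE1, a subunit of the enzyme that activates NEDD8, lost its exon 3 from 0.962, 0.958 and 0.943 to 0.297, 0.380 and 0.547. An exon in the 5′ UTR of ZZZ3, a histone reader, fell from 0.833, 0.864 and 0.795 to 0.265, 0.343 and 0.307. MSI2, an RNA-binding protein of the Musashi family, lost its 73-bp exon 13 from 0.841, 0.820 and 0.854 to 0.306, 0.289 and 0.354 (ΔΨ −0.522 ± 0.0218, limma-moderated adjusted p = 0.0183). FXYD5, a regulator of the sodium pump, had a 178-bp exon at 0.669, 0.684 and 0.681 that fell to 0.158, 0.170 and 0.149. By their choice, each co-treated library lay below each MS023 library in all 6 exons, as in 13.7% of tested exons (8924 of 65343).

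Exons gained included a receptor exon and an unusually long one. FGFR3 is a fibroblast growth factor receptor, and its 151-bp exon 8 encodes part of an immunoglobulin-like domain that sets ligand choice. This exon rose from 0.240, 0.304 and 0.243 to 0.804, 0.882 and 0.717 (ΔΨ 0.539 ± 0.0521, limma-moderated adjusted p = 0.0423), and rested on as few as 51 reads. RTN4 encodes the reticulon family member that includes the neurite growth inhibitor Nogo-A, whose long exon 3 of 2400 bp rose from 0.198, 0.217 and 0.159 to 0.729, 0.595 and 0.666 (ΔΨ 0.472 ± 0.0421, limma-moderated adjusted p = 0.0328). EP400, a chromatin remodeller, gained exon 4 from 0.453, 0.525 and 0.580 to 0.886, 0.940 and 0.960. PIGF, a GPI anchor synthesis enzyme, went from a mean of 0.321 to 0.726, NDEL1, a dynein regulator, from 0.110 to 0.503 in a 5′ UTR exon, and ZNF76, a zinc finger protein, from 0.519 to 0.906. The 6 were chosen for no overlap between the groups, which 5.42% of tested exons showed in this direction.

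**Figure D3:**
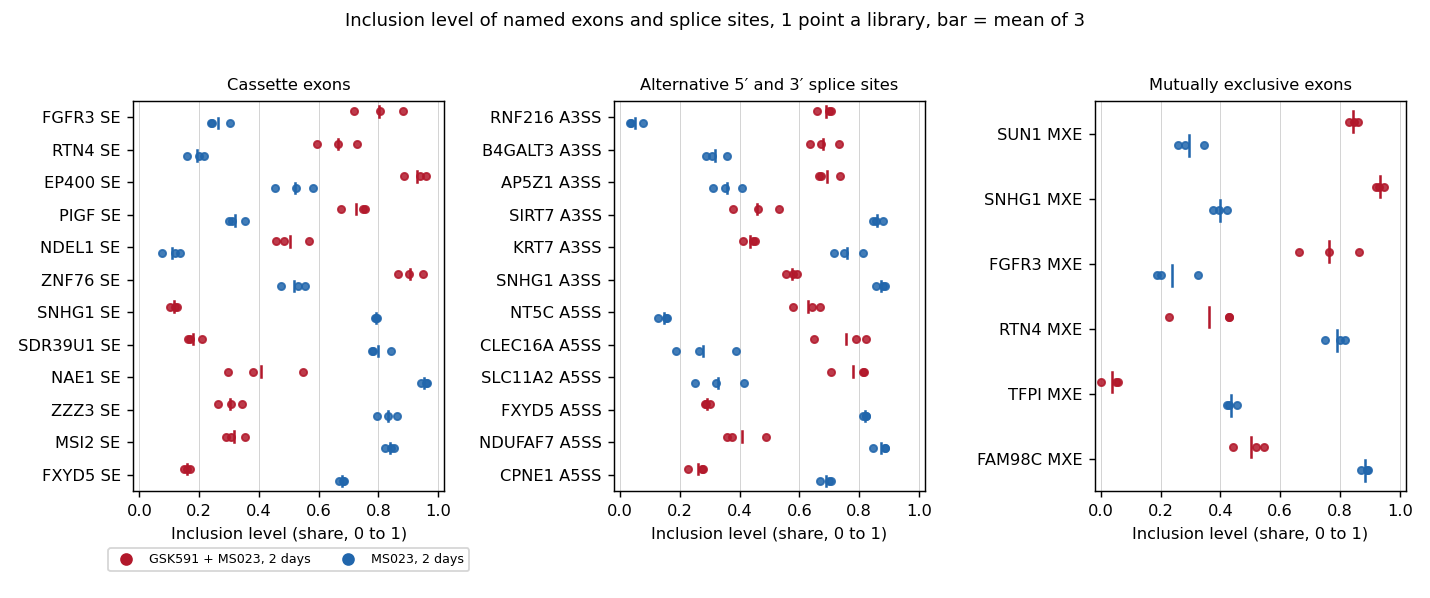
Ψ (share, 0 to 1) of the named cassette exons, alternative splice sites and mutually exclusive exons, with 1 point per library for co-treated and MS023 cells at 2 days and a bar at each mean of 3. The plotted events were chosen for no overlap between the points of the 2 groups, and SNHG1 exon 4 falls from a mean of 0.792 to 0.116.

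Exons called lower had short flanking introns. The median shorter neighbour was 311 bp long for exons called lower, 758 bp for those called higher and 1202 bp for those tested, and the median longer neighbour 1192, 3445 and 4065 bp. The median exon was 97.5 bp in the lower set, 174 bp in the higher and 119 bp over all tested. Exon length was a multiple of 3 in 228 of the 456 exons called lower, in 49.5% of those called higher and in 41.0% of those tested. The last base of the exon was G in 68.2% of exons called lower, 85.9% of those called higher and 79.6% of those tested. SNHG1 exon 4, PCBP2 exon 12 and MSI2 exon 13, shown above, end in G, and U2AF1 exon 3 ends in T. The median Ψ of exons called lower was 0.903 in MS023 libraries and 0.658 in co-treated libraries.

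Alternative 5′ splice sites were called more often than alternative 3′ splice sites. For A5SS, 289 of 3781 were called (7.64%), with the longer exon higher in 201 (5.32%) and lower in 88 (2.33%). For A3SS, 58 of 5740 were called (1.01%), 34 higher (0.592%) and 24 lower (0.418%), and at an unadjusted p under 0.05 the numbers were 953 and 859. With at least 6 reads of the rarer form the calls were 827 of 3066 A5SS and 531 of 4722 A3SS, by limma 344 and 0. Limma had an unadjusted p under 0.05 for 903 A3SS. The fits without 1 library called 15 to 53 A5SS and 0 A3SS. The longer end lay inside an intron called higher in 14 of the 201 A5SS called higher (6.97%) against 2.35% of A5SS tested, so some of these events count reads of the same retained intron.

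Among A5SS, NT5C, a nucleotidase, gained 80 bp at an exon end, from Ψ of 0.128, 0.156 and 0.154 to 0.579, 0.668 and 0.642 (ΔΨ 0.484 ± 0.0278, limma-moderated adjusted p = 0.0036). CLEC16A, an endosomal protein, rose from a mean of 0.279 to 0.754 and SLC11A2, an iron transporter, from 0.329 to 0.778 at sites 48 bp and 5 bp apart. In the other direction FXYD5 lost a 154-bp end, from 0.813, 0.824 and 0.824 to 0.300, 0.285 and 0.289 (ΔΨ −0.529 ± 0.00581, limma-moderated adjusted p = 0.000694). This segment overlaps the FXYD5 exon above, so both events share reads. NDUFAF7, a complex I assembly factor, fell from 0.872 to 0.406 and CPNE1, a calcium-dependent membrane binder, from 0.690 to 0.260 on average. NT5C, FXYD5 and CPNE1 were called in each fit without 1 library, and the other 3 in none.

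Among A3SS chosen in the same way, the largest change was in RNF216, a ubiquitin ligase. A 269-bp segment rose from Ψ of 0.0356, 0.0327 and 0.0781 to 0.658, 0.700 and 0.707 (ΔΨ 0.639 ± 0.0212, limma-moderated adjusted p = 0.00868). B4GALT3, a galactosyltransferase, rose from a mean of 0.317 to 0.680 and AP5Z1, an adaptor subunit, from 0.357 to 0.692. SIRT7, a deacylase of the nucleolus, fell from 0.860 to 0.457, KRT7, a keratin, from 0.759 to 0.435, and SNHG1 from 0.874 to 0.575 in a 231-bp segment downstream of its exon 4. That SNHG1 segment spans a 47-bp cassette exon, which fell from 0.913 to 0.743, and a 184-bp intron, which fell from 0.267 to 0.130. It therefore shares reads with both. By their choice, no library of one group reached the other in these 6 events. All 6 had limma adjusted p between 0.0621 and 0.0727 on log2 odds.

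Mutually exclusive exons were called in 606 of 15362 pairs (3.94%), with the exon nearer the 5′ end higher in 367 (2.39%) and lower in 239 (1.56%). Requiring at least 6 reads of the rarer form gave 1254 of 14736, and leaving out 1 library 210 to 264. In SUN1, a nuclear envelope protein that links to the cytoskeleton, use of an 84-bp exon over a 111-bp exon rose from Ψ of 0.281, 0.259 and 0.345 to 0.829, 0.846 and 0.861 (ΔΨ 0.550 ± 0.0276, limma-moderated adjusted p = 0.000462). In FGFR3 the 151-bp exon was set against the 145-bp exon that follows it, and its share rose from 0.189, 0.324 and 0.202 to 0.864, 0.765 and 0.662. The 2 exons are the known alternatives of that receptor domain. In SNHG1 the pair of exons 3 and 4 moved to exon 3, from a mean of 0.397 to 0.933, and in RTN4 the share of a 57-bp exon against the 2400-bp exon fell from 0.789 to 0.361. These pairs and that of FGFR3 share reads with the cassette exons above. Against another partner, SNHG1 exon 3 went the other way, from 0.618 to 0.106 on as few as 42 reads (limma-moderated adjusted p = 0.00421). TFPI, an inhibitor of coagulation, fell from 0.436 to 0.0361 and FAM98C from 0.885 to 0.501. Without 1 library, the FGFR3 pair kept its call in 4 of 6 fits and RTN4 in 5. The pairs of SUN1, TFPI, FAM98C and SNHG1 exons 3 and 4 kept theirs in all 6.

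Gene lists are set beside all tested events, of which 31.5% of introns (28.6% higher and 2.9% lower, median ΔΨ 0.0205) and 1.67% of the 90226 other events were called. In 11 tested genes of PRMTs and their cofactors, 0 of 7 introns and 2 of 118 other events (1.69%) were called, the latter share being close to that of all events. The 7 introns lay in 4 genes. An unadjusted p under 0.05 was reached by 2 of the 7 introns, whose median ΔΨ was 0.0158. CLNS1A, the chaperone that brings Sm proteins to PRMT5, had exon 3 at 0.997, 0.992 and 0.996 in MS023 cells and at 0.931, 0.906 and 0.916 in co-treated cells. PRMT7, another methyltransferase, gained 0.169 in the share of 1 exon of a pair, a call that no fit without 1 library kept. Among Sm and snRNP genes, 0 of 2 introns were called, also at an unadjusted p under 0.05, and 3 of 162 other events (1.85%). SNRPG, an Sm protein, lost its 23-bp exon 2 in part, from 0.920, 0.908 and 0.911 to 0.823, 0.838 and 0.834, on at least 2653 reads. A 60-bp exon of SNRNP70, the U1 snRNP protein, was rare throughout and fell from 0.0263 to 0.00519 on average.

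TREX and mRNA export factors had 7 of 15 tested introns called higher and 0 lower (46.7% called, against 31.5% of all introns), with a median ΔΨ of 0.0142, below the 0.0205 of all introns. All 7 were in 3 genes, THOC6, DDX39A and CHTOP. THOC6, a subunit of the THO complex, had Ψ of 0.356, 0.300 and 0.319 in its intron 2 against 0.0249, 0.0592 and 0.0358 (ΔΨ 0.285 ± 0.0193, limma-moderated adjusted p = 0.000678), and 2 neighbouring introns rose by 0.217 and 0.198. DDX39A, an RNA helicase of export, rose in a 342-bp intron from 0.0944 to 0.173 on average. ZC3H11A, an export factor, gained 0.305 at an alternative 5′ splice site, called in 0 of 6 fits without 1 library. SR and TRA2 proteins had 0 of 9 introns called higher and 2 lower, against 28.6% and 2.9% of all introns. Both were in 1 gene, SRSF5, where the 1215-bp intron fell from 0.242, 0.242 and 0.250 to 0.181, 0.196 and 0.201 (limma-moderated adjusted p = 0.00265, or 0.132 by limma on log2 odds). A 3′ UTR exon of SRSF2 fell from 0.0973 to 0.0311.

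The hnRNP and FET genes held changes in every event type, with 13 of 36 introns called higher and 1 lower. That share (38.9%) was near the 31.5% of all introns, and the median ΔΨ of 0.00954 was below the 0.0205 of all introns. Of 413 other events, 7 were called higher and 13 lower (4.84%, against 1.67% over all other events). PCBP2, a poly(C)-binding protein, lost its 39-bp exon 12 from 0.640, 0.638 and 0.655 to 0.166, 0.163 and 0.137, on at least 2893 reads (ΔΨ −0.489 ± 0.0106, limma-moderated adjusted p = 0.00565). EWSR1, the FET protein, retained a 299-bp intron at 0.807, 0.735 and 0.786 against 0.296, 0.385 and 0.247. A 3′ UTR exon of HNRNPA2B1 fell from 0.540 to 0.265. HNRNPH1 had 5 of 7 tested introns called higher, among them the pair above.

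Spliceosome proteins beyond the Sm core had 10 of 31 introns called higher and 4 lower (45.2% called, against 31.5% of all introns), with a median ΔΨ of 0.0027. U2AF1 recognises the 3′ splice site and carries a pair of 67-bp alternative exons. Its exon 3 fell from 0.587, 0.567 and 0.595 to 0.265, 0.283 and 0.260 (ΔΨ −0.314 ± 0.0109, limma-moderated adjusted p = 0.0132), while the other 67-bp exon, chr21:44521476-44521542, rose from 0.0932 to 0.242. As a mutually exclusive pair the second exon's share rose from 0.194 to 0.468 (limma-moderated adjusted p = 9.48e-05). The list of CLK and SRPK kinases, which phosphorylate SR proteins, had 2 of 13 introns called (15.4%, against 31.5% of all introns). Both were in PRPF4B, a kinase of the spliceosome on that list that is neither a CLK nor an SRPK, where a 512-bp intron rose from 0.771 to 0.974.

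RNA polymerase II and its kinases and cyclins had 4 of 15 introns called higher and 1 lower (33.3% called, near the 31.5% of all introns). Of the 4, 1 was in POLR2I, a polymerase subunit, with a ΔΨ of 0.0182. CDK10, a cyclin-dependent kinase, lost exon 8 from 0.827, 0.900 and 0.907 to 0.387, 0.469 and 0.473, and the introns on both sides of that exon rose in retention, from 0.613 to 0.956 and from 0.414 to 0.812. These neighbouring events share junction reads. CCNL2 retained a 1214-bp intron less, from 0.923 to 0.798, and CCNK, the cyclin of CDK12, rose from 0.0130 to 0.0319, each called in 1 of 6 fits without 1 library. DNA repair genes had 7 of 19 introns called higher and 0 lower, which at 36.8% called was near the 31.5% of all introns, with a median ΔΨ of 0.0684, POLD1 above being the largest. RAD52 lost exon 10 from 0.708 to 0.215 and ERCC1, a nuclease subunit, exon 9 from 0.654 to 0.284.

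The snoRNA host genes had 6 of 18 introns called higher and 3 lower, against 31.5% of all introns called, and 20 of 201 other events called (9.95%, against 1.67% of all other events). Most of the 20 were in GAS5, SNHG1 and SNHG5, where several events use the same exon and share reads. Cassette exons, the type called least often, made up 102 of the 201 events but 65343 of all 90226, so the 2 shares differ in their mix of types. In SNHG5 a 159-bp segment listed as A5SS fell from 0.926, 0.918 and 0.919 to 0.540, 0.545 and 0.512 on at least 5047 reads (ΔΨ −0.389 ± 0.0104, limma-moderated adjusted p = 0.000694). It spans an 81-bp cassette exon, which fell from 0.964 to 0.722, and a 78-bp intron with mean Ψ of 0.0172 and 0.0259. The SNHG5 events thus share reads, and use of another 5′ splice site was not separated from skipping of that exon. SNHG12 rose from 0.161 to 0.357 at an alternative 5′ splice site. Nonsense-mediated decay factors had 1 of 7 introns (14.3%) and 1 of 158 other events (0.633%) called, both below the shares over all events of 31.5% and 1.67%, the intron being in CASC3 with Ψ of 1 in all MS023 libraries and 0.992 on average with co-treatment. OGT, the transferase of O-GlcNAc, had 1 tested intron, of 3271 bp, which fell from 0.444, 0.472 and 0.448 to 0.406, 0.335 and 0.328 (ΔΨ −0.0983 ± 0.0267, limma-moderated adjusted p = 0.0235, or 0.102 by limma on log2 odds). Without 1 library, the calls of SNHG12 and CASC3 were kept in 0 of 6 fits and that of OGT in 1.

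At 4 days the same comparison was made in 6 other libraries. There 1505 of 3905 introns were called (38.5%), 1352 higher (34.6%) and 153 lower (3.92%). Calls were also made in 2.03% of SE (0.594% higher, 1.44% lower), 3.48% of A3SS (2.35% and 1.12%), 12.2% of A5SS (8.62% and 3.62%) and 5.74% of MXE (3.4% and 2.34%). Leaving out any 1 of these libraries left 1171 to 1242 RI, 6 to 11 SE, 0 to 3 A3SS, 124 to 166 A5SS and 396 to 479 MXE called, of 1505, 1329, 204, 470 and 862. Of the 1097 introns called higher at 2 days, 1095 were tested at 4 days. Of these, 1086 had the same sign (99.2%) and 933 were called higher (85.2%). Their median ΔΨ at 4 days was 0.115, against 0.0231 over all introns tested. Of 110 introns called lower and tested again, 102 had the same sign and 60 were called lower. Of the cassette exons called lower, 455 of 455 had the same sign and 350 were called lower. The same sign was also seen in 93 of 94 cassette exons and in 201 of 201 A5SS called higher, of which 73 and 154 were called higher again. Among named introns, SGSM3 reached a ΔΨ of 0.655 at 4 days, whereas C1orf63 gave −0.0077 and was not called.

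Without MS023, GSK591 against DMSO moved the same introns the same way in most cases. Of 1094 introns called higher with MS023 and measured in all 12 libraries, 1066 (97.4%) had a positive ΔΨ in GSK591 minus DMSO. Tested introns as a whole also rose in that contrast, so an even split is not the baseline for this share. The median ΔΨ of these introns was 0.107 with MS023 and 0.0713 without, but they were picked on the first of these contrasts, which favours it. Over all 3733 introns tested in the 12 libraries, with no such choice, the medians were 0.0204 and 0.0161, and ΔΨ was larger with MS023 in 2161 (57.9%). Across these introns the Spearman correlation of the 2 contrasts was 0.669, and that of the 2-day and 4-day contrasts over 3761 introns was 0.751. The values are across introns of shared genes, which are not independent replicates.

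**Figure D4:**
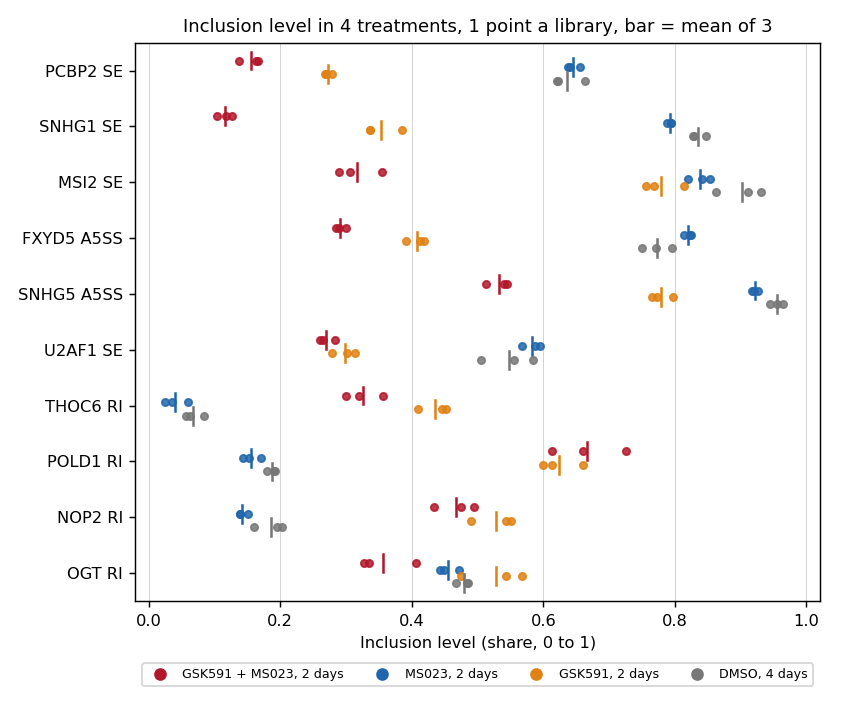
Ψ (share, 0 to 1) of 10 named events in 4 groups, DMSO at 4 days and GSK591, MS023 and co-treated cells at 2 days, with 1 point per library and a bar at each mean of 3. MSI2 exon 13 is at 0.756 to 0.814 with GSK591 alone and at 0.289 to 0.354 with both compounds.

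The difference between the GSK591 effects with and without MS023 was itself tested as an interaction on the log odds of inclusion. Its p-values therefore do not test differences in Ψ. The interaction was called in 23 of 3733 introns (0.616%), in 18 of them with a ΔΨ larger with MS023 (0.482%). It was also called in 57 of 59715 cassette exons (0.0955%), 3 of 5440 A3SS (0.0551%), 11 of 3565 A5SS (0.309%) and 10 of 13503 MXE (0.0741%). By limma on log2 odds 0 were called in any type, with an unadjusted p under 0.05 in 282 introns and 3590 cassette exons, against 373 and 5938 in the quasi-binomial test. Without any 1 DMSO library, 1 to 3 RI and 0 SE were called. None of the 7 introns with large rises described above was among the calls. SGSM3 intron 12 had Ψ of 0.643, 0.558 and 0.724 with GSK591 alone and 0.267, 0.236 and 0.212 with DMSO, an effect of 0.404 against 0.564 with MS023 (interaction adjusted p = 0.193, limma-moderated).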

How the data were processed

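Stranded poly(A) libraries were sequenced as paired reads. The submitters' processing notes name Trim Galore 0.6.5, STAR 2.4.2a, Picard 2.3.0 and hg19, and the authors ran rMATS on each treatment against DMSO. The deposited tables hold, for each event, the counts of the inclusion and the skipping form of every library, joined by commas in 1 column, taken from junction and segment reads, with effective lengths. The authors' own inclusion differences, p-values and false discovery rates against DMSO were not used. As the tables join events made in separate runs, only events identical in type, chromosome, strand and coordinates were compared; DMSO counts were the same in both tables at all of them. The tables give the libraries of a group in an order with no replicate number, so they are given in that order, and columns not mapped to a sample numbered 0.

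Events with at least 10 reads in each library were tested in R 4.3.3 with a quasi-binomial model of both counts, dispersion moderated by limma 3.58.1 and held at 1 or above, and Benjamini-Hochberg adjustment within event type (called, adjusted p under 0.05); the scripts were tested on simulated data. The difference between the GSK591 effects with and without MS023 was an interaction term on the log odds over 12 libraries. Library medians were compared by two-sided exact permutation. Ψ was computed from counts divided by effective length. Event ends were read from the hg19 genome and matched to GENCODE introns; 99.5% of tested RI had canonical ends and 93.6% matched an annotated intron. No pair of libraries of a group agreed within sampling noise (chi-square per degree of freedom 3.05 to 4.00). Gene lists are described by counts and medians.

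Named events were, of called events with at least 50 reads in each library and no overlap of Ψ between groups, 1 per gene, those with the largest ΔΨ: 8 RI higher and 6 lower, 6 SE each way, 3 A3SS, A5SS and MXE each way, up to 3 per gene list, and the RT-qPCR introns; a few of these are not reported here. Further events of genes already named, and values of the AP1G2, VPS28, ACADVL, CPSF3L, NPRL2, RHOT2 and POLR2I introns, were chosen after their values were seen. The comparison, lists and tests were chosen with earlier results of these data known. The alternatives were other read minimums, adjustment and dispersion rules, limma on log2 odds with 0.5 added, no length correction, and each library left out.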

Additional observations from a re-analysis of the deposited data

Results flagged for a closer look

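The effect of GSK591 with MS023 present and its effect without MS023 differed by the interaction test in 23 RI, 57 SE, 3 A3SS, 11 A5SS and 10 MXE. By limma on log2 odds 0 were called in every type, and without any 1 DMSO library the quasi-binomial test called 1 to 3 RI, 0 SE, 0 A3SS, 0 to 1 A5SS and 1 to 4 MXE. The DMSO libraries of this test were of 4 days, so day and treatment cannot be told apart in the effect without MS023.

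Among the named events, 8 differed in this way. Each difference given here is the effect with MS023 minus the effect without it, in Ψ. The limma-moderated adjusted p in brackets is that of the interaction on log odds, not of the difference in Ψ. PCBP2 exon 12 differed by −0.127 (7.59e-05), from −0.363 without MS023 to −0.489 with it, and SNHG1 exon 4 by −0.194 (0.000706), from −0.481 to −0.675. MSI2 exon 13 differed by −0.400 (0.0261), from −0.122 to −0.522, the widest of the 8. The FXYD5 exon and its overlapping alternative 5′ splice site differed by −0.153 (0.00804) and −0.164 (0.000979). The SNHG1 pair of exons 3 and 4, which shares reads with exon 4, differed by 0.110 (0.00937). The SNRNP70 exon differed by −0.0279 (0.000507), from 0.00676 to −0.0211. The OGT intron differed by −0.148 (0.0448), from 0.0499 to −0.0983, so that its effects had opposite signs, neither larger than 0.1 in size. Leaving out each of the 12 libraries in turn kept the call in 9 fits for PCBP2, SNRNP70, the FXYD5 exon and both SNHG1 events, in 10 for the FXYD5 splice site, in 6 for MSI2 and in 2 for OGT. The limma adjusted p on log2 odds lay between 0.299 and 0.859 for all 8.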

How the results depend on the processing

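No paired analysis was possible because the tables' columns carry no replicate numbers. The edgeR alternative was not run, since the counts of 3 libraries stand joined in 1 column. Retained introns kept their excess of higher calls, at 89.7% to 94.5% of calls, in each setting with all libraries. No named event changed direction in any setting run, but the settings could hardly show this. Only a left-out library or the lack of length correction alters ΔΨ. Neither can turn the sign of an event with no overlap of Ψ between the groups. All called events had no overlap, except among introns called higher, where 1095 of 1097 had none. At 2 days, adjustment over all 5 event types together gave 577 RI, 1078 SE, 105 A3SS and 177 A5SS; a dispersion not held at 1 gave 2496 SE, 180 A3SS and 504 A5SS; limma gave 1132 SE and 0 A3SS; a minimum of 1 read gave 33 A3SS; and at least 6 reads of the rarer form, chosen after seeing the data, gave 7260 SE, 531 A3SS, 827 A5SS and 1254 MXE. At 4 days, joint adjustment gave 923 RI, 2117 SE and 311 A5SS, a dispersion not held at 1 gave 3838 SE and 392 A3SS, limma 3409 SE, and 6 reads of the rarer form 9147 SE, 812 A3SS, 1027 A5SS and 1723 MXE. For the interaction, joint adjustment gave 8 RI and 6 A5SS, limma 0 in each type, and 6 reads of the rarer form 286 SE, 26 A3SS and 28 A5SS. Without 1 library, calls at 2 days were 865 to 929 RI, 0 to 2 SE, 0 to 0 A3SS, 15 to 53 A5SS and 210 to 264 MXE; at 4 days 1171 to 1242, 6 to 11, 0 to 3, 124 to 166 and 396 to 479; for the interaction 1 to 21, 0 to 79, 0 to 7, 0 to 16 and 1 to 17. The cause was not tested. The difference in library median Ψ turned sign for A3SS with a minimum of 20 reads (−0.00114), without length correction (−0.000356) and over libraries left out (−0.00209 to 0.00279, negative without the third MS023 library), for A5SS with 20 reads (−0.0026), and for MXE over libraries left out (−0.000119 to 0.00173, negative without the third co-treated library). Of 76 named events, 60 were still called by limma, 64 under joint adjustment and 32 to 37 without 1 library. The part of the read counts of the rarer form in these changes was not tested.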
